A study of Mus musculus with 24 samples.

Results

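The transcription factor genes *Nr4a1*, *Nr4a2*, *Nr4a3*, *Egr1*, *Egr2*, and *Crem* were followed across the cells of Panc02 tumors, 6 of the 32285 genes counted. They were chosen by their names after *Nr4a2*, *Nr4a3*, and *Crem* had been seen to move in these data when checkpoint antibodies were added to the PancVAX vaccine. The levels in that contrast are therefore a description below, and the tests concern other contrasts. The vaccine comparison also holds those libraries. Panc02 is a mouse pancreatic cancer line, and PancVAX is a vaccine of synthetic peptides that carry neoantigens of this line, given with adjuvants.

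Tumors were grown under the skin of male WT C57BL/6 mice aged 6–7 weeks and were collected on day 38 after implantation. The 4 treatments without vaccine were Isotype Control, Anti-PD-1, Anti-CTLA-4, and both of these antibodies. The same 3 antibody treatments were given on top of PancVAX, and PancVAX was also given without a checkpoint antibody, which made 8 treatments. PancVAX was injected on days 12 and 19, anti–CTLA-4 (100 µg) on days 15 and 22, and anti–PD-1 (100 µg) repeatedly from day 12. The sources differ on the harvest day and on the second anti–CTLA-4 day, and the days printed are those of the labels. Each treatment gave 1 library of dissociated whole tumor and 1 of cells enriched on a Percoll density gradient, 16 libraries in all, and each library came from tumors pooled within a treatment. The preparation was also the sequencing batch. A vaccinated tumor had received both peptides and adjuvants, and the effects of these cannot be told apart. Subcutaneous tumors of an injected line differ from tumors that arise in the pancreas.

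The NR4A proteins (Nur77, Nurr1, and Nor1, from *Nr4a1*, *Nr4a2*, and *Nr4a3*) are orphan nuclear receptors. Their genes are switched on within the early response to antigen receptor signals, and lasting expression of them is known from exhausted T cells. EGR1 and EGR2 are zinc finger factors of the same early response, and EGR2 is linked to T cell anergy. *Crem* encodes activator and repressor forms of a factor that binds cyclic AMP response elements (CREs), among them the short repressor ICER.

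The promoters of the 3 *Nr4a* genes are shown because each held 4 copies of the CRE core TGACG, read on either strand (CGTCA on the other). As many copies stood in 0.231% of the 32851 promoter windows of the same length, and at least 1 in 20.8% of them. Each window runs from 250 bases before to 50 bases after the start of transcription, from RefSeq on build GRCm38.p6, written 5′ to 3′ along the gene, with the CRE core in capitals. The windows lie at chr15:101266596-101266895 (plus strand) for *Nr4a1*, chr2:57123954-57124253 (minus strand) for *Nr4a2*, and chr4:48045055-48045354 (plus strand) for *Nr4a3*.
Nr4a1: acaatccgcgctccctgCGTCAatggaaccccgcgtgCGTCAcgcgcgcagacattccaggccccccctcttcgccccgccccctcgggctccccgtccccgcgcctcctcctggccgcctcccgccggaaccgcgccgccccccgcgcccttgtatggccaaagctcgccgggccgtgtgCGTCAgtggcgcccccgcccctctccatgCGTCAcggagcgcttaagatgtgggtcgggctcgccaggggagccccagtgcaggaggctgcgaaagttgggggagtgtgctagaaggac
Nr4a2: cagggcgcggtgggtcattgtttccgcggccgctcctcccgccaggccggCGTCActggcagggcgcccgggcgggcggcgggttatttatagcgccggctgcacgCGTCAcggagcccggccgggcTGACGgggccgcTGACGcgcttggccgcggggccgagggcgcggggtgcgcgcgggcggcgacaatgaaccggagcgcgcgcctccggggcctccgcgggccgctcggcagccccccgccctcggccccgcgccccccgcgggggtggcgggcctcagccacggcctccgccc
Nr4a3: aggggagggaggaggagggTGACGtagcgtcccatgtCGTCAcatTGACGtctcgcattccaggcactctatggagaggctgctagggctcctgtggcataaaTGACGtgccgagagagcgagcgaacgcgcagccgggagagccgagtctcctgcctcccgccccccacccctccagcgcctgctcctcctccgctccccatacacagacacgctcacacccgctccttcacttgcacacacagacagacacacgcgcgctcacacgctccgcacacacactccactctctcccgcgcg
The full palindrome TGACGTCA, found in 1.79% of windows, was in none of these 3. Of the 5 start sites listed for *Egr2*, 3 had a window with 2 copies of the core, and these windows overlap. Other motifs searched for were AAAGGTCA (NBRE), TGANTCA (AP-1), GCGTGGGCG or GCGGGGGCG (EGR), and the CArG box, and the CRE core was the motif chosen for print. *Nr4a1* had 1 EGR site (found in 3.47% of windows), and *Nr4a2* and *Nr4a3* had none of these other motifs. Windows of *Egr2* held the CArG box (1.63% of windows). The letters were searched as given, and a match is not evidence of binding.

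Of 144994 barcodes, 57357 passed limits on genes, unique molecular identifiers (UMIs), and mitochondrial RNA. Cells were placed in gates by UMIs of marker genes, which gave 10399 CD8 cells (257 to 1236 a library), 1100 CD4 cells (20 to 133), 481 regulatory T cells (11 to 47), and 21674 myeloid cells (777 to 2181). In the regulatory T gate, which required *Foxp3*, the markers *Il2ra* and *Ikzf2* had medians of 481 and 1027 UMIs per 1000000 UMIs of the gate (CPM). The B cell marker *Cd79a*, which the gates barred, was at 0 in CD8 and regulatory T cells. Any pair of libraries shared 5 to 45 barcodes, at most 1.26% of the smaller. In levels from summed UMIs, fewer expressing cells and less RNA per cell cannot be told apart. *P* values measure the spread between pools or libraries, not between mice. The sources do not say whether both libraries of a treatment share mice. Where libraries were the samples, they may therefore not be independent, and the *P* values may be too small.

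The 6 genes had separate patterns across cell types. *Nr4a2* was highest in CD8 cells, at 479 ± 150 CPM (SD, n = 16 libraries), and *Crem* in regulatory T cells, at 386 ± 101 CPM. *Nr4a1* was highest in epithelial cells at 2134 ± 530 CPM and lowest in CD8 cells at 232 ± 137 CPM. The epithelial gate was cut on UMIs of *Krt8*, *Krt18*, and *Epcam* without *Ptprc*. Medians there were 661 CPM for *Krt8* and 1250 CPM for *Krt18*, but 5.21 CPM for *Epcam*, against 6.03 CPM in CD8 cells. Tumor cells were not told apart from other cells with these keratins. *Egr1* was also highest in epithelial cells, at 1257 ± 143 CPM, while *Nr4a3* at 343 ± 105 CPM and *Egr2* at 45.4 ± 14.6 CPM were highest in neutrophils. Levels of different genes are not compared with each other. These orders are of shares of the UMIs of a gate, not of UMIs per cell.

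Several neighbors in these orders were closer than the larger of their SDs. For *Nr4a2*, CD8 cells, neutrophils (353 ± 93.4 CPM), epithelial cells (326 ± 88.7), and NK cells (299 ± 116) followed each other within 1 SD. CD4 cells (179 ± 84.2 CPM) were lower by more than the larger SD, and B cells were lowest at 57.9 ± 34.5 CPM. For *Crem*, regulatory T cells stood above CD4 cells (203 ± 51.5 CPM) by more than the larger SD, whereas CD4 and CD8 cells (156 ± 42.4) did not stand apart by this measure. Epithelial cells had 21.4 ± 5.73 CPM of *Crem*, the lowest of the 8 gates. For *Nr4a1*, regulatory T cells (551 ± 205 CPM), NK cells (520 ± 248), CD4 cells (442 ± 184), and macrophages (400 ± 134) formed such a run. *Egr2* was near the limit of detection in CD8 cells at 2.73 ± 1.81 CPM and in regulatory T cells at 1.27 ± 2.75 CPM.

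**Figure D1:**
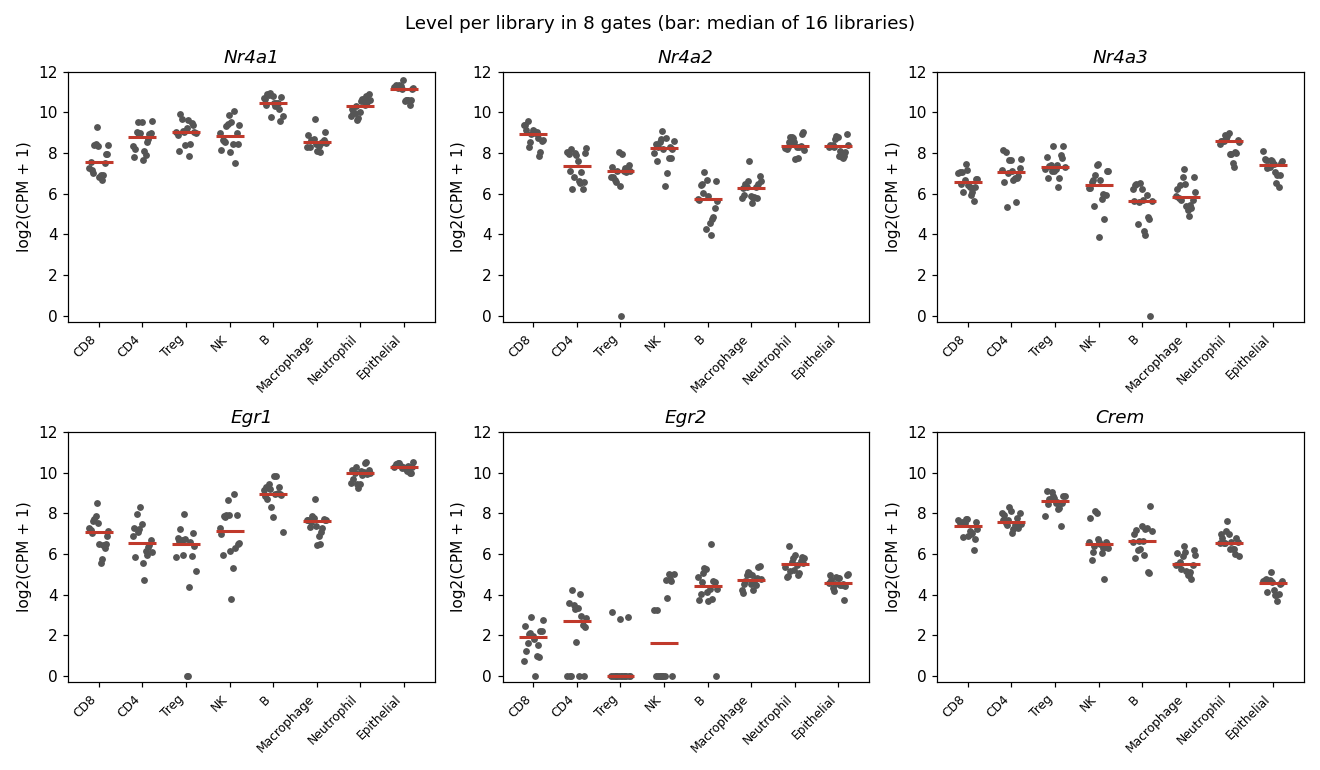
Level of each gene in 8 gates, as log2(CPM + 1) on the vertical axis. Each point is 1 of 16 libraries and the bar is the median; *Nr4a2* is highest in CD8 cells, *Crem* in regulatory T cells, and *Nr4a1* and *Egr1* in epithelial cells.

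Within the T cells of a library, *Nr4a2* was higher in CD8 than in CD4 cells and *Nr4a1* was lower. CD8 and CD4 cells were compared within libraries, with 13.5% of 9724 genes past an adjusted *P* of 0.05 and a log2 fold change beyond 0.5 in either direction (edgeR quasi-likelihood test, Benjamini-Hochberg). *Nr4a2* ranged from 229 to 767 CPM in CD8 cells and from 73.8 to 301 CPM in CD4 cells. It was higher in CD8 cells in 16 of 16 libraries, by a log2 of 1.51 ± 0.11 (SE; edgeR adjusted *P* = 4.04e-14). *Nr4a1* was lower in CD8 cells in 15 of 16 libraries, by a log2 fold change of -0.86 ± 0.10 (edgeR adjusted *P* = 2.4e-09), but with no upper limits on cell size the value was -0.21 and the call was lost (edgeR adjusted *P* = 0.343). *Nr4a3* (-0.40), *Egr1* (0.42), and *Crem* (-0.30) passed the *P* threshold without reaching the size threshold on this log2 scale. *Egr2* had a value of -0.80 ± 0.41 (edgeR adjusted *P* = 0.178). Of 27 early genes of receptor signaling, 12 were lower in CD8 cells and 1 higher. Their median log2 was -0.48, against 0.07 over all genes. Of 16 dissociation stress genes (heat shock and immediate early genes known to rise during tissue digestion), 4 were lower and 0 higher. Their median was -0.12, and the part of stress was not tested.

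Regulatory T cells carried more *Crem* than CD4 cells and less *Egr1*. Among 3815 genes, 18.8% were called in this comparison. *Crem* ranged from 163 to 546 CPM in regulatory T cells and from 130 to 312 CPM in CD4 cells, and it was higher in regulatory T cells in 14 of 16 libraries. The log2 fold change was 0.78 ± 0.11 (edgeR adjusted *P* = 1.42e-06), and with no upper limits it was 0.50, just short of the size threshold. *Egr1* was lower in regulatory T cells in 13 of 16 libraries, by -0.56 ± 0.17 (edgeR adjusted *P* = 0.0103), a call kept in 9 of 13 alternative settings. The call of *Egr1* was lost with stricter gates (-0.25), with no upper limits (-0.39), with no library block (-0.51), and without the pool given PancVAX and both antibodies (-0.49). *Nr4a1*, *Nr4a2*, and *Nr4a3* did not pass, with values of 0.13, -0.43, and 0.20. Of 16 stress genes, 6 were lower in regulatory T cells and 0 higher, with a median log2 of -0.45, against -0.01 over all genes. Of 22 early genes tested, 4 were higher and 5 lower, with a median of -0.10. The part of stress in the value of *Egr1* was not tested.

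CD8 and myeloid cells differed in 5 of the 6 genes, in a comparison where 62.3% of 12656 genes were called. *Nr4a2* was higher in CD8 cells by a log2 of 1.80 ± 0.19 and *Crem* by 1.49 ± 0.07, each in 16 of 16 libraries. *Nr4a1* (-1.53 ± 0.11), *Egr1* (-1.43 ± 0.13), and *Egr2* (-3.31 ± 0.17) were lower in CD8 cells in 16 of 16 libraries. *Nr4a3* had a value of -0.17 ± 0.10 (edgeR adjusted *P* = 0.144). Of 16 stress genes, 9 were lower in CD8 cells and 3 higher, with a median log2 of -0.89. Of 27 early genes, 13 were higher and 10 lower, with a median of 0.46. The part of stress was not tested. Among the myeloid cells, neutrophils stood above macrophages in 16 of 16 libraries for all members but *Crem*, which was higher in 15. The macrophage gate took myeloid cells with *Csf1r* and without *Csf3r*, so monocytes and dendritic cells can be in it. The dendritic markers *Xcr1* and *Cd209a* had medians of 20.5 and 17.7 CPM in that gate. For *Nr4a1* the levels were 1301 ± 351 CPM in neutrophils and 400 ± 134 CPM in macrophages, with no test made of this pair. Median UMIs per cell over libraries were 1309 to 1731 in neutrophils and 3775 to 5788 in macrophages. The CPM are shares of UMIs, and the part of depth was not tested.

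In CD8 cells, *Nr4a2*, *Nr4a3*, and *Crem* went with the checkpoint receptors. CD8 cells with UMIs of at least 2 of *Pdcd1*, *Havcr2*, *Lag3*, and *Tigit* (checkpoint-high, 5076 cells) were compared with those with none (checkpoint-low, 2787 cells) in the same library. *Nr4a2* had 658 ± 140 CPM in checkpoint-high and 124 ± 64.3 CPM in checkpoint-low cells, *Crem* 201 ± 58.3 and 70.4 ± 35.5 CPM, and *Nr4a3* 121 ± 44.5 and 57.4 ± 27.2 CPM (SD, n = 16). All 3 were higher in the checkpoint-high cells of 16 of 16 libraries. Over the libraries, *Nr4a2* ranged from 426 to 916 CPM in checkpoint-high and from 53.3 to 313 CPM in checkpoint-low cells, without overlap.

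In this comparison 19.7% of 9242 genes were called, 8.73% as higher and 11% as lower. The log2 fold changes were 2.31 ± 0.12 for *Nr4a2* (edgeR adjusted *P* = 2.86e-14), 1.40 ± 0.11 for *Crem* (1.41e-10), and 0.98 ± 0.09 for *Nr4a3* (3.23e-09). *Nr4a2* and *Crem* kept their calls in 13 of 13 alternatives, and *Nr4a3* fell to 0.47, below the size threshold, with no upper limits. *Egr1* was lower in checkpoint-high cells, by -0.51 ± 0.11 (edgeR adjusted *P* = 0.000679), in 13 of 16 libraries, a call at the edge of the size threshold that was kept in 7 of 13 alternatives. It was lost by DESeq2 (-0.49), with no filter on low counts (-0.45), with stricter gates (-0.48), without the library block (-0.57), and without the PancVAX pool (-0.46) or the pool given PancVAX and both antibodies (-0.41). *Nr4a1* was lower in 11 of 16 libraries at -0.46 ± 0.10 (edgeR adjusted *P* = 0.000334), short of the size threshold.

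Median UMIs per cell were 3596 to 5924.5 over libraries in checkpoint-high and 2663 to 4977 in checkpoint-low cells, and the part of depth was not tested. Dissociation stress genes moved the other way, with 10 of 16 lower, 0 higher, and a median log2 of -0.74, against -0.01 over all genes. *Fos*, *Jun*, and *Ier2* stand in both this list and that of early genes. The 4 of largest change were *Socs3* (-1.81), *Fos* (-1.12), *Hspa1b* (-1.05), and *Ier3* (-1.04). Of the early genes of receptor signaling, these 3 included, 7 of 26 were higher, with the costimulatory receptors *Tnfrsf9* (3.71), *Tnfrsf4* (2.89), and the inhibitory ligand *Cd200* (3.03), and 9 were lower, among them the 3 shared genes and the early activation marker *Cd69* (-1.26). Of the anergy genes, the ubiquitin ligase *Cblb* (1.01) and the EGR corepressor *Nab2* (0.86) were higher and the diacylglycerol kinase *Dgka* (-0.94) lower, of 9 tested. Of 14 cyclic AMP genes, 4 were higher, with the prostaglandin receptor *Ptger2* (1.45), the adenosine receptor *Adora2a* (0.91), and the phosphodiesterase *Pde4d* (0.73), and *Pde4b* (-1.06) was lower. The 4 checkpoint genes set the gate, so their own values are no result.

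**Figure D2:**
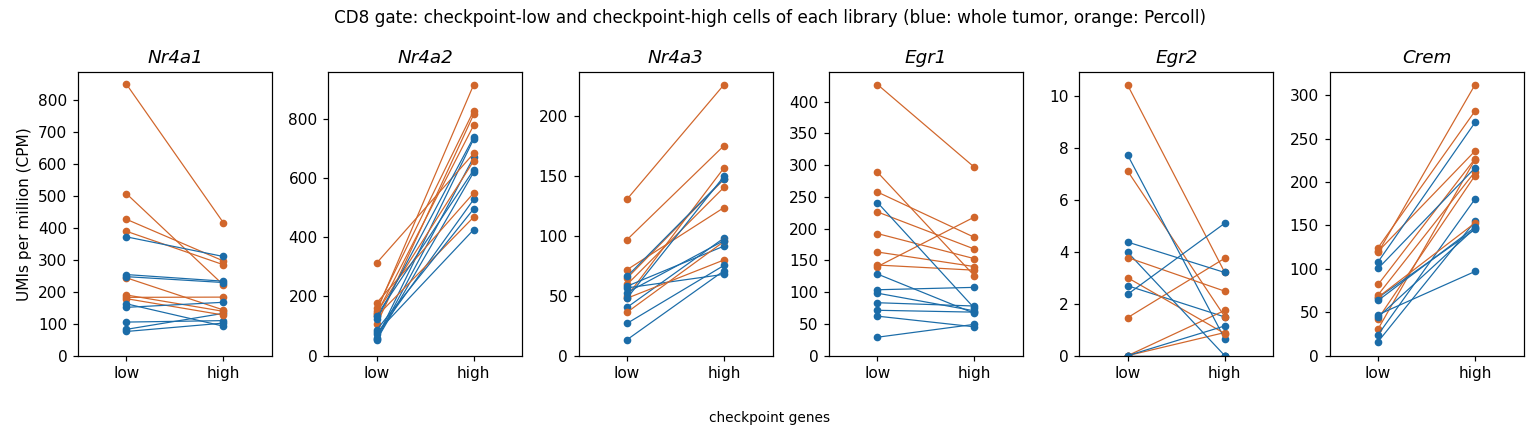
Level of each gene (CPM, vertical axis) in checkpoint-low and checkpoint-high CD8 cells, with a line for each of the 16 libraries. *Nr4a2*, *Nr4a3*, and *Crem* rise in 16 of 16 libraries, and *Egr1* falls in 13.

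T cell receptor sequences of the 8 Percoll libraries gave a second division of the CD8 cells. Cells of expanded clones (3 or more cells with the same TRB chain in a library, 2578 cells) were compared with cells whose chain was seen once (1437 cells), and 8.73% of 8202 genes were called. *Nr4a2* was higher in expanded clones in 8 of 8 libraries, at 675 ± 199 against 335 ± 61.2 CPM, with a log2 fold change of 0.91 ± 0.08 (edgeR adjusted *P* = 1.48e-06). *Crem* was higher in 8 of 8 libraries, at 223 ± 45.8 against 133 ± 47.9 CPM, with 0.69 ± 0.12 (edgeR adjusted *P* = 0.000742). *Nr4a3* was higher in 7 of 8 libraries, with 0.40 ± 0.10 (edgeR adjusted *P* = 0.012), short of the size threshold. *Nr4a1* (-0.14) and *Egr1* (0.02) did not pass. Among the checkpoint and Tox genes, 7 of 8 were higher in the expanded clones, led by *Tox* (1.46), a regulator of exhaustion, *Lag3* (1.30), *Pdcd1* (1.06), and *Havcr2* (0.93). The clone division thus also differed in genes that set the checkpoint division. How many cells the divisions share was not counted.

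With PancVAX, CD8 cells had more *Nr4a1* and less *Nr4a2*. To ask what the vaccine changed, both libraries of a treatment were summed to a pool, and the 4 pools with PancVAX were compared with the 4 without it, with each antibody as a covariate. For *Nr4a1*, the pools PancVAX, PancVAX + Anti-PD-1, PancVAX + Anti-CTLA-4, and PancVAX with both antibodies had 267, 467, 294, and 330 CPM. The pools Isotype Control, Anti-PD-1, Anti-CTLA-4, and both antibodies had 123, 159, 136, and 127 CPM. Every pool with PancVAX lay above every pool without, and the log2 fold change was 1.21 ± 0.12 (edgeR adjusted *P* = 0.000265).

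*Nr4a2* went the other way. Its levels in the same order were 274, 447, 312, and 497 CPM with PancVAX and 561, 600, 618, and 547 CPM without. The pools did not overlap, and the log2 fold change was -0.73 ± 0.13 (edgeR adjusted *P* = 0.00504). This test is not independent of the choice of *Nr4a2*, which used the PancVAX libraries, and the PancVAX pool had its lowest level. Without that pool the value was -0.63 and still called by edgeR, but the remaining pools with PancVAX also include libraries the choice used. In the CD8 comparison 10.5% of 11132 genes were called, 6.47% as higher and 3.99% as lower. Both calls were kept in 14 of 15 alternatives and lost with no upper limits, where *Nr4a1* had 0.43 (edgeR adjusted *P* = 0.299) and *Nr4a2* had -0.28 (0.207).

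*Egr1* was higher in all 4 pools with PancVAX, at 146, 262, 152, and 165 CPM against 131, 103, 128, and 103 CPM. Its log2 fold change of 0.54 ± 0.17 missed the threshold (edgeR adjusted *P* = 0.0541), passed by DESeq2 (0.53, adjusted *P* = 0.00751), with no filter on low counts (0.53), with a preparation block (0.56), and without the Anti-CTLA-4 or the PancVAX pool (0.67 each), and was 0.05 with no upper limits. *Egr2* had 1.00 ± 0.34 (edgeR adjusted *P* = 0.0679) from 2.13 to 5.30 CPM against 1.22 to 2.63 CPM, with overlap. *Nr4a3* (-0.04 ± 0.22) and *Crem* (-0.18 ± 0.15) did not pass, and their pools overlapped. The fit takes the vaccine effect as the same at every antibody treatment, so effects of opposed sign average out. *Crem* had 71.7 and 115 CPM (whole tumor and Percoll) in PancVAX against 130 and 186 CPM in Isotype Control. With anti–PD-1, *Crem* had 189 and 210 CPM with the vaccine against 139 and 186 CPM without. Whether the vaccine effect depends on the antibodies was not tested.

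**Figure D3:**
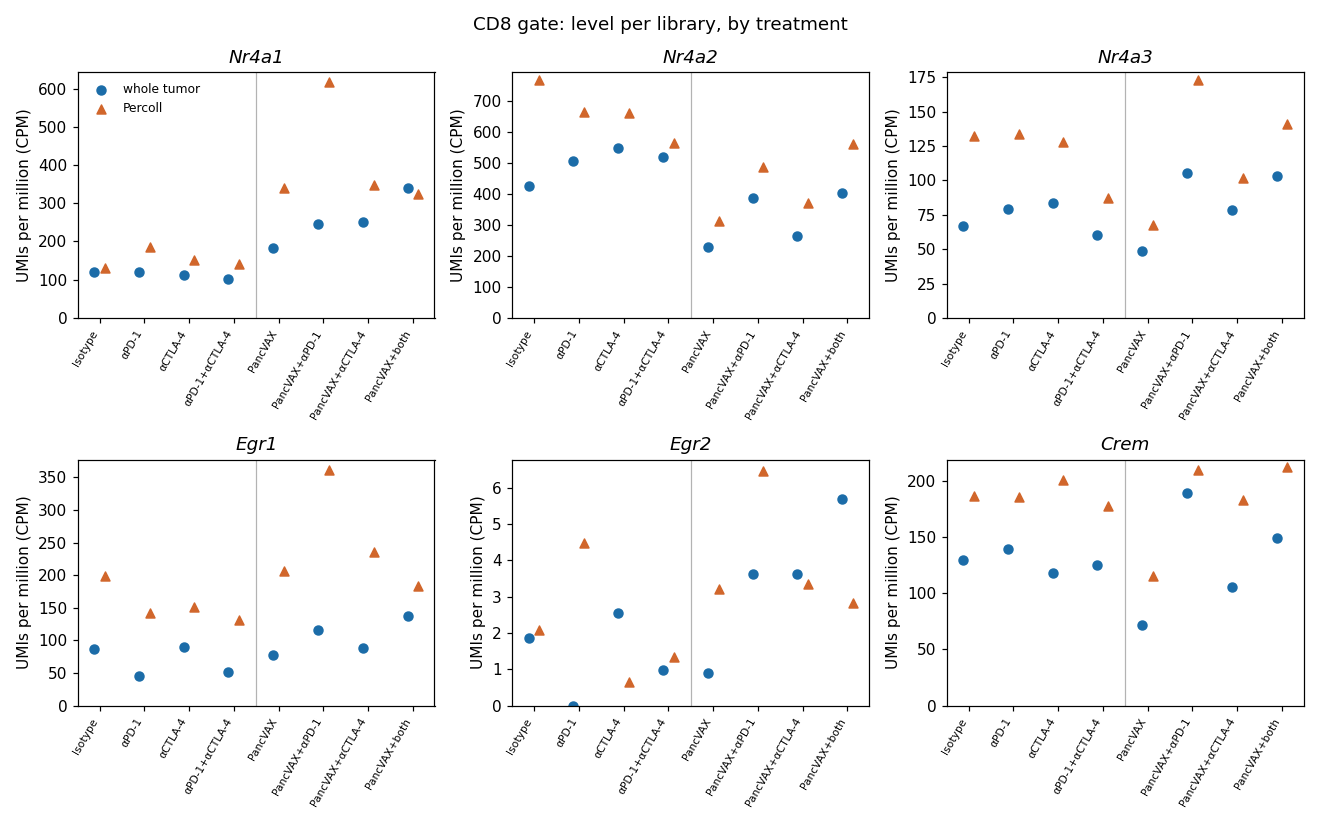
Level of each gene (CPM, vertical axis) in the CD8 cells of every library by treatment, with whole tumor as circles and Percoll as triangles, and treatments with PancVAX to the right of the line. *Nr4a1* is higher and *Nr4a2* lower on the right, and Percoll points lie above whole-tumor points in most treatments.

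Other values moved with the vaccine in the same pools. Checkpoint-high cells made up 33.8% to 43.7% of the CD8 gate with PancVAX and 66.1% to 72.9% without, and *Nr4a2* was the member most raised in those cells. Within checkpoint-high cells, the *Nr4a2* value was -0.35 ± 0.12 (edgeR adjusted *P* = 0.0914) and the pools overlapped. In checkpoint-low cells *Nr4a2* had 104, 247, 124, and 141 CPM in the pools PancVAX, PancVAX + Anti-PD-1, PancVAX + Anti-CTLA-4, and PancVAX with both antibodies. It had 97.4, 81.2, 99.2, and 115 CPM there in Isotype Control, Anti-PD-1, Anti-CTLA-4, and both antibodies, so these pools overlapped too, and the mean was higher with PancVAX (154 against 98.2 CPM), with no test. The 3 neutrophil markers (*Csf3r*, *S100a8*, *S100a9*) summed to 76.4 to 435 CPM in CD8 cells with PancVAX (median 239) and to 16.3 to 171 CPM without (median 69.1), with none at 0 in all libraries, against a median of 47196.5 CPM in the neutrophil gate. The 16 stress genes summed to 6104 to 10420 CPM with PancVAX (median 8026) and 5017 to 8109 CPM without (median 6748). The 8 myeloid markers had medians of 126 and 115 CPM, and the 3 epithelial markers 57.9 and 44.0 CPM. Over the pools, the epithelial markers summed to 50.1 to 243 CPM with PancVAX and 26.6 to 73.8 CPM without. The part of stress and of neutrophil and epithelial RNA in the change of *Nr4a1* was not tested.

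The upper limits of 3000 genes and 10000 UMIs a cell, which the study set, bear on these values. They left out 1038 CD8 cells with PancVAX and 1080 without, which held 46.7% and 55.4% of the UMIs of the gate. In the myeloid gate they left out 5862 and 7279 cells with 74.8% and 79.5% of its UMIs. The epithelial markers *Krt8*, *Krt18*, and *Epcam* were summed in each pool of the CD8 gate. In the left-out CD8 cells these markers had 754 to 1579 CPM with PancVAX and 638 to 1218 CPM without. In the CD8 cells within the limits they had 50.1 to 243 and 26.6 to 73.8 CPM. *Nr4a1* had 1170 ± 428 and 809 ± 177 CPM in the left-out CD8 cells (SD, n = 4 pools), more than in the CD8 cells within. *Nr4a2* had 396 ± 70.2 and 343 ± 42.3 CPM in the left-out CD8 cells. Whether these cells are doublets was not tested.

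*Nr4a1* was also higher with PancVAX inside the checkpoint-high cells, where 5.68% of 10335 genes were called. The 4 pools with PancVAX had 198 to 337 CPM and those without 107 to 163 CPM, without overlap. The log2 fold change was 0.96 ± 0.11 (edgeR adjusted *P* = 0.000439), and 0.23 with no upper limits (edgeR adjusted *P* = 0.711). In checkpoint-low cells, *Nr4a1* had 411 ± 144 CPM with PancVAX and 156 ± 17.7 CPM without, given with no test. The other 5 members did not pass in checkpoint-high cells, with *Egr2* at 1.39 ± 0.45 (edgeR adjusted *P* = 0.077).

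CD4 cells gave a like value for *Nr4a1*, from fewer cells. The pools had 488 to 745 CPM with PancVAX and 244 to 422 CPM without, without overlap. The log2 fold change was 0.94 ± 0.19 (edgeR adjusted *P* = 0.0212), with 1.37% of 5462 genes called. This call was kept in 6 of 15 alternatives, and it was lost with stricter gates, with no upper limits, in either preparation alone, and without any of 5 pools, at log2 fold changes that ranged from 0.58 to 1.17 over all alternatives. The pools whose absence ended it were Anti-CTLA-4, Anti-PD-1, both antibodies, PancVAX, and PancVAX with both antibodies. *Egr1* had 0.68 ± 0.22 (edgeR adjusted *P* = 0.184), and *Nr4a2*, *Nr4a3*, and *Crem* lay between -0.15 and 0.19. *Egr2* was too low to test in CD4 and regulatory T cells.

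Regulatory T cells showed 0 members called by edgeR, with 1 member (*Nr4a3*) at an unadjusted *P* under 0.05 and 0 called by DESeq2. Of 4014 genes, 302 were under this unadjusted *P* and 0.0498% were called. *Nr4a1* had 579 ± 156 CPM with PancVAX and 502 ± 168 CPM without, and *Nr4a3* had 0.56 ± 0.22 (edgeR adjusted *P* = 0.54). In 1 regulatory T library the neutrophil markers summed to 3629 CPM, with a median over libraries of 8.47 CPM.

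In myeloid cells edgeR called 0 members, as it called 0% of 12823 genes. All 6 values were positive, but with no upper limits on cell size that of *Egr1* was -0.068, and 32 genes and 0 members were called. With the 16 libraries as samples and the preparation as a block, 43 genes were called, among them *Nr4a3* (0.69, edgeR adjusted *P* = 0.0389). All 6 had an unadjusted *P* under 0.05, as did 1956 of all genes. The values ran from 0.34 ± 0.13 for *Crem* to 0.72 ± 0.20 for *Nr4a2*, with adjusted *P* of 0.213 to 0.277 by edgeR. DESeq2 called 46 genes and 2 of 5 members with an adjusted *P*, *Nr4a2* (0.72, 0.0022) and *Nr4a3* (0.65, 0.000216).

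The myeloid pools did not overlap for *Nr4a1*, *Nr4a2*, and *Nr4a3*, and they overlapped for *Egr1*, *Egr2*, and *Crem*. The share of all genes whose pools did not overlap is not given for this or any other gate. Pools without overlap are therefore a description of levels, not a trait particular to the members. *Nr4a2* had 120, 252, 177, and 134 CPM in the pools PancVAX, PancVAX + Anti-PD-1, PancVAX + Anti-CTLA-4, and PancVAX with both antibodies, and 115, 105, 71.1, and 101 CPM in the pools without. *Nr4a3* had 98.7 to 186 CPM with PancVAX and 70.5 to 85.8 CPM without. Over these pools, the epithelial markers summed to 180 to 466 CPM with PancVAX and 112 to 229 CPM without. The neutrophil markers summed to 4861 to 7343 CPM with PancVAX and 2419 to 5403 CPM without. The part of epithelial and neutrophil RNA in the levels of the members was not tested. The neutrophil gate made up 15.1 to 20.5 cells per 100 myeloid cells with PancVAX and 10.5 to 17.2 without. Within neutrophils, *Nr4a2* had 419 ± 65.9 and 296 ± 29.4 CPM, and within macrophages 97.3 ± 38.9 and 63.3 ± 13.5 CPM, with no test.

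The difference between gates was tested in 1 fit of both. For *Nr4a2*, *Nr4a3*, and *Crem* these tests are not independent of the choice of the genes, which used the PancVAX libraries. In those libraries each of these genes had its lowest CD8 level among the treatments, and the CD8 vaccine effect enters every such test. The vaccine effect on *Nr4a2* was higher in myeloid than in CD8 cells by 1.42 ± 0.20 (edgeR adjusted *P* = 0.000484), where 6.1% of 13429 genes were called. *Nr4a3* (0.68 ± 0.15, edgeR adjusted *P* = 0.0127) and *Crem* (0.52 ± 0.09, 0.00324) were also higher in myeloid cells, and *Nr4a1* was lower (-0.81 ± 0.11, 0.00035). With no upper limits, *Nr4a2* (0.83) and *Crem* (0.57) kept their calls, while *Nr4a1* (-0.14) and *Nr4a3* (0.39) lost theirs.

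Against regulatory T cells, where 1.67% of 10763 genes were called, the vaccine effect on *Nr4a1* was lower than in CD8 cells by -0.93 ± 0.16 (edgeR adjusted *P* = 1.57e-06). That on *Nr4a2* was higher by 0.85 ± 0.21 (edgeR adjusted *P* = 0.00476), a call DESeq2 did not make (0.80, adjusted *P* = 0.401). With no upper limits neither was called, at -0.52 (edgeR adjusted *P* = 0.11) and 0.19 (0.992). The limit on the choice of *Nr4a2* holds here too. In the regulatory T fit edgeR estimated the spread over all genes together, so its *P* values do not rest on each gene's own spread. CD4 and CD8 cells had 0 members that differed by edgeR and 0 by DESeq2, with 2 at an unadjusted *P* under 0.05 (*Nr4a2* at 0.62 and *Crem* at 0.39), as were 1210 of all 10765 genes. Of these 10765 genes, 1.27% were called.

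**Figure D4:**
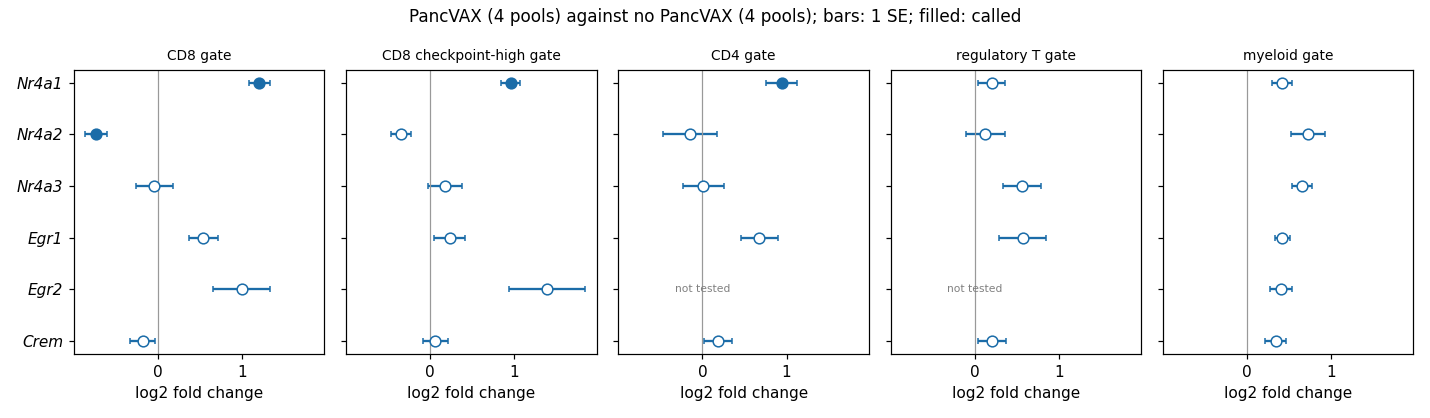
Log2 fold change between the 4 pools with PancVAX and the 4 without (horizontal axis) for each gene in 5 gates, with bars of 1 SE and filled points for called genes. *Nr4a1* is called in CD8, checkpoint-high, and CD4 cells and *Nr4a2* in CD8 cells.

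The genes around the members in CD8 cells were taken from lists of related genes. With PancVAX, where 6.47% of all genes were called higher and 3.99% lower, 7 of 27 early genes were higher and 2 lower, with a median log2 of 0.30 against 0.02 over all genes. The NF-κB inhibitors *Nfkbia* (1.29 ± 0.06) and *Nfkbid* (1.05 ± 0.19) and the costimulatory receptor *Icos* (1.00 ± 0.11) were higher and *Cd200* (-1.25 ± 0.25) lower. Of 9 checkpoint and Tox genes, 5 were lower and 0 higher, with a median of -0.75, led by *Tox* (-1.23), *Lag3* (-1.01), *Cd160* (-0.88), and *Havcr2* (-0.75). Of 16 stress genes, 4 were higher and 0 lower, with a median of 0.34, namely *Ier3* (1.61), *Socs3* (1.21), *Ier2* (0.65), and *Zfp36* (0.51). Of 10 anergy genes only the kinase *Dgkz* (-0.54) was called, and of 15 cyclic AMP genes only *Pde4b* (0.76), which degrades cyclic AMP.

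In checkpoint-high cells the same lists had 6 of 27 early genes higher (*Nfkbid* 1.10, *Nfkbia* 1.07, *Icos* 1.00, and *Dusp2* 0.58), 1 of 9 checkpoint and Tox genes lower (*Tox*, -0.59), and 3 of 16 stress genes higher (*Socs3* 1.64, *Ier3* 1.34, and *Ier2* 0.56). *Pde4b* was again higher (0.93), and no anergy gene was called. In CD4 cells, 3 of 24 early genes were higher (*Dusp5* 0.85, *Ier2* 0.56, and *Bhlhe40* 0.52), 2 of 7 checkpoint and Tox genes lower (*Havcr2* -1.71 and *Lag3* -1.04), and 3 of 16 stress genes higher (*Atf3* 1.44, *Ier3* 1.01, and *Ier2* 0.56). The anergy list held 1 lower gene in CD4 cells (*Dgkz*, -1.08). No listed gene was called in regulatory T or myeloid cells, where 0.0498% and 0% of all genes were called, so these counts say nothing particular to the lists. The share of all genes called was 5.68% in checkpoint-high and 1.37% in CD4 cells.

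Without the vaccine, no member passed the test for an effect of the antibodies, which does not show that levels did not differ. Both antibodies were compared with Isotype Control over libraries with the preparation as a covariate, and edgeR and DESeq2 each called 0 members in 5 gates. The percent of genes called was 0.058% of 10351 in CD8, 0.142% of 9157 in checkpoint-high, 0.254% of 3941 in CD4, 0.0388% of 2576 in regulatory T, and 0.0249% of 12056 in myeloid cells. At an unadjusted *P* under 0.05 there were 2 members in CD8 cells (*Nr4a3* and *Egr1*), 1 in checkpoint-high cells (*Egr1*), 3 in CD4 cells (*Nr4a1*, *Nr4a2*, and *Egr1*), 1 in regulatory T cells (*Nr4a1*), and 0 in myeloid cells. Of all genes tested, 573, 567, 355, 136, and 358 were under the same unadjusted *P* in these 5 gates.

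In CD8 cells, *Egr1* had 86.5 CPM (whole tumor) and 198 CPM (Percoll) in Isotype Control and 52.2 and 131 CPM with both antibodies. Within either preparation the level was lower with both antibodies, and the log2 fold change was -0.61 ± 0.23 (edgeR adjusted *P* = 0.822). *Nr4a2* had 424 and 767 CPM in Isotype Control and 518 and 563 CPM with both antibodies, which overlap (-0.05 ± 0.13). *Crem* had 130 and 186 CPM against 126 and 178 CPM (-0.02 ± 0.14). *Nr4a1* in regulatory T cells had a value of -1.33 ± 0.37 (edgeR adjusted *P* = 0.291).

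Either antibody alone gave 0 members called in CD8 cells, by edgeR and by DESeq2, with 0.0773% of 10351 genes called for anti–PD-1, and 0.126% for anti–CTLA-4. At an unadjusted *P* under 0.05 there was 1 member with anti–PD-1 (*Egr1*, -0.61 ± 0.23) and 0 with anti–CTLA-4, and of all genes 648 and 581 were under it. The only listed genes called in these antibody comparisons were the heat shock genes *Hspa1a* and *Hspa1b*, at 2.23 and 2.62 for both antibodies, 1.94 and 2.02 for anti–PD-1, and 2.61 and 2.33 for anti–CTLA-4 in CD8 cells, and at 2.04 and 2.45 for both antibodies in checkpoint-high cells. All of these comparisons share the Isotype Control libraries, so their values are not independent of each other.

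On top of PancVAX, the antibodies were the contrast by which the genes were chosen, and the values that follow are a description without a test. *Nr4a3* had 48.6 CPM (whole tumor) and 67.9 CPM (Percoll) in PancVAX alone and 103 and 141 CPM with both antibodies. *Crem* had 71.7 and 115 CPM in PancVAX and 149 and 212 CPM with both antibodies. *Nr4a2* had 229 and 314 CPM in PancVAX and 402 and 560 CPM with both antibodies.

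For these 3 genes both libraries with both antibodies lay above both PancVAX libraries. The log2 differences from PancVAX in CD8 cells were 1.06 for *Nr4a3*, 0.95 for *Crem*, 0.81 for *Nr4a2*, 0.39 for *Nr4a1*, and 0.30 for *Egr1* with both antibodies, where 0.164% of all genes were called. With anti–PD-1 they were 1.20, 1.09, 0.66, 0.64, and 0.66 (1.54% called), and with anti–CTLA-4 0.63, 0.59, 0.21, 0.21, and 0.16 (0.0869% called). All of them share the 2 PancVAX libraries, in which *Nr4a2*, *Nr4a3*, and *Crem* had their lowest CD8 level of the 8 treatments in either preparation. In checkpoint-high cells the differences with both antibodies were 1.05 for *Nr4a3*, 0.98 for *Crem*, and 0.80 for *Nr4a2* (0.491% of genes called).

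Outside the CD8 cells the same description differed by gate. In CD4 cells *Nr4a2* was 1.80 and *Nr4a3* 1.44 above PancVAX with both antibodies on the log2 scale, and *Crem* 0.15. In regulatory T cells *Crem* was 0.49, *Nr4a2* -0.08, and *Nr4a3* -0.49. In myeloid cells *Crem* was 0.89, *Nr4a3* 0.52, and *Nr4a2* 0.26. The percent of genes called with both antibodies was 0% in CD4, 0.0388% in regulatory T, and 0% in myeloid cells.

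With anti–PD-1 on top of PancVAX, *Nr4a2*, *Nr4a3*, and *Crem* were all above PancVAX in the 5 gates. The log2 differences in that order were 0.53, 1.26, and 1.20 in checkpoint-high cells (2.35% of genes called), 1.74, 1.23, and 0.52 in CD4 cells (0.0761%), 0.99, 0.71, and 0.63 in regulatory T cells (0%), and 1.01, 0.89, and 0.98 in myeloid cells (0.108%). With anti–CTLA-4 they were 0.20, 0.48, and 0.57 in checkpoint-high cells (0.262%), 0.43, 0.72, and -0.14 in CD4 cells (0%), 0.28, -0.19, and 0.50 in regulatory T cells (0%), and 0.63, 0.40, and 0.58 in myeloid cells (0.0332%). *Nr4a1* differed in sign between gates, with 0.65 in myeloid and -0.57 in regulatory T cells with anti–PD-1.

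The preparation went with the level of most members. In CD8 cells the Percoll library was above the whole-tumor library of the same treatment in 8 of 8 treatments for *Nr4a2*, *Nr4a3*, *Egr1*, and *Crem*, in 7 for *Nr4a1*, and in 5 for *Egr2*. *Egr1* had 201 ± 73.8 CPM in Percoll and 86.6 ± 30.2 CPM in whole tumor (SD, n = 8), with a median ratio of 2.58. The stress genes summed to 7395 to 10420 CPM in the Percoll and 5017 to 7377 CPM in the whole-tumor libraries of CD8 cells, without overlap, and their part was not tested. In neutrophils, *Nr4a1* went the other way, at 1000 ± 152 CPM in Percoll and 1601 ± 186 CPM in whole tumor, lower in Percoll in 8 of 8 treatments. The preparation and the sequencing batch cannot be told apart.

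The genes whose CD8 pattern was most like that of each member were found by Pearson's *r* of log2(CPM + 1) over the 16 libraries, after the mean of each preparation was subtracted, among 5135 genes. For *Nr4a1* they were *Sgk1* (0.97), *Tiparp* (0.97), and *Psap* (0.96), and for *Nr4a2* they were *Uhrf2* (0.96), *Tigit* (0.91), and *Ier5l* (0.91). *Nr4a3* was most like *Cdk17* (0.90), *Mxi1* (0.83), and the member *Crem* (0.82), and *Crem* was most like *Mxi1* (0.87), *Rbm3* (0.85), and *Tgfb1* (0.85). For *Egr1* they were *Pnp* (0.91), *Zwint* (0.90), and *Tspo* (0.90), and for *Egr2*, at few UMIs a library, *Usp10* (0.89) and *Retreg3* (0.87). All points share libraries, depth, and the difference between treatments with and without PancVAX, so these values describe the libraries and carry no test.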

How the data were processed

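Reads were aligned and counted by the authors with Cell Ranger 4.0.0 on mm10, per the labels, and the deposited values are raw UMI counts per gene and barcode. Receptor contigs of the 8 Percoll libraries were deposited as a table with counts of reads and UMIs, from which clones were read. Barcodes were assigned to libraries by the number at their end. Cells passed the limits of the study's methods, with 200–3000 genes, 1000–10000 UMIs, a mitochondrial share below 10%, and hemoglobin absent. No doublet caller was run.

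Gates were cut on marker UMIs, not on clusters. T cells had at least 2 UMIs of *Cd3d*, *Cd3e*, *Cd3g*, and *Trac*, more than of myeloid markers, and no *Cd79a*. CD8 cells had *Cd8a* or *Cd8b1* without *Cd4* or *Foxp3*, CD4 cells had *Cd4* without *Cd8a*, *Cd8b1*, or *Foxp3*, and regulatory T cells had *Foxp3*. Myeloid cells had at least 2 UMIs of *Csf1r*, *C1qa*, *C1qb*, *C1qc*, *Adgre1*, *Itgam*, *Cd68*, and *Csf3r*, without *Cd3d*, *Cd3e*, *Cd3g*, or *Cd79a*. Of these, macrophages had *Csf1r* without *Csf3r*, and neutrophils *Csf3r* and *S100a8* without *Csf1r*. NK cells had *Ncr1* or *Klrb1c*, and B cells *Cd79a*, both without the *Cd3* genes. Counts were summed by gate and by library or pool, and samples under 10 cells were left out. Tests used the quasi-likelihood test of edgeR 4.0.16 (R 4.3.3) with TMM, filterByExpr, and Benjamini-Hochberg adjustment over all genes tested, two-sided, called at an adjusted *P* under 0.05 and an absolute log2 fold change over 0.5. SEs are the absolute log2 fold change divided by the root of F. Settings tried besides were DESeq2 1.42.0, stricter gates, all genes kept at low counts, no upper limits, 1 preparation alone, another block, and each pool or library left out. The replicate number is the preparation and thus the sequencing batch, which pairs the libraries by the study's methods. Members and lists were chosen with earlier results of these data known. The named genes are the members, up to 4 called genes with the largest change per list and comparison, and the 3 genes most like each member, of which 1 is not reported here. Library totals were 77132398 to 176233225 UMIs. The tests were tried on simulated data. RefSeq start sites were found for 4 of the 6 members.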

Additional observations from a re-analysis of the deposited data

Results flagged for a closer look

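Among 60 groups of 4 pools, 3 had a pool far from the other 3, and chance gives about 1 in 20 groups. *Nr4a1* in myeloid cells was 1013 CPM in the PancVAX + Anti-PD-1 pool, against 563, 602, and 620 CPM in the other pools with PancVAX. *Egr1* in CD8 cells was 262 CPM in the same treatment, against 146, 152, and 165 CPM. Both genes had their highest level in epithelial cells. The Percoll library of this treatment held 1833 epithelial cells, the most of any library (239 to 1833). The part of epithelial RNA in these values was not tested. *Egr2* in regulatory T cells was 5.04 CPM in the Anti-PD-1 pool and 0 in the other 3 pools without PancVAX. This value rests on 1 UMI, and 1 UMI in any of these pools would have set it apart. The cause was not tested.

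The vaccine effect was tested for a difference between gates in 17 cases, and 6 passed (edgeR with Benjamini-Hochberg), where 1.27% of all genes were called for CD4 against CD8 cells, 1.67% for regulatory T, and 6.1% for myeloid cells. Between regulatory T and CD8 cells, the log2 effect on *Nr4a1* differed by -0.93 (adjusted *P* = 1.57e-06) and that on *Nr4a2* by 0.85 (0.00476). Between myeloid and CD8 cells, *Nr4a1* differed by -0.81 (0.00035), *Nr4a2* by 1.42 (0.000484), *Nr4a3* by 0.68 (0.0127), and *Crem* by 0.52 (0.00324). The tests of *Nr4a2*, *Nr4a3*, and *Crem* are not independent of the choice of these genes, which used the PancVAX libraries. Those in regulatory T cells used a spread estimated over all genes together. With no upper limits on cell size 4 of the 6 were lost, both in regulatory T cells and *Nr4a1* and *Nr4a3* in myeloid cells, and DESeq2 did not call *Nr4a2* in regulatory T cells (adjusted *P* = 0.401).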

How the results depend on the processing

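Member values kept their sign and side of the threshold in 492 results of the other settings and 529 with a pool or library left out. The setting that changed most was the upper limit on cell size. The sign turned in 38 and 47 values, none of which was called as reported or had an adjusted *P* under 0.05 where it turned, 22 and 8 calls were lost, and 17 and 10 were gained. The cause was not tested. CD4 and regulatory T cells had as few as 20 and 11 cells a library.

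As reported, the number of genes called was 1164 for PancVAX in CD8, 587 for PancVAX in checkpoint-high, 75 for PancVAX in CD4, 2 for PancVAX in regulatory T, 0 for PancVAX in myeloid, 6 for both antibodies in CD8, 13 for both antibodies in checkpoint-high, 10 for both antibodies in CD4, 1 for both antibodies in regulatory T, 3 for both antibodies in myeloid, 8 for anti–PD-1, 13 for anti–CTLA-4, 716 for regulatory T against CD4, 716 for expanded against single clones, 137 for CD4 minus CD8, 180 for regulatory T minus CD8, and 819 for myeloid minus CD8. With no upper limits on cell size the number of genes called was 412 for PancVAX in CD8, 99 for PancVAX in checkpoint-high, 11 for PancVAX in CD4, 0 for PancVAX in regulatory T, 32 for PancVAX in myeloid, 7 for both antibodies in checkpoint-high, 1 for both antibodies in CD4, 0 for both antibodies in regulatory T, 80 for both antibodies in myeloid, 10 for CD4 minus CD8, 88 for regulatory T minus CD8, and 251 for myeloid minus CD8. The sign turned for *Nr4a3* in PancVAX in CD8 (0.049), *Egr1* in PancVAX in checkpoint-high (-0.13), *Nr4a2* in PancVAX in CD4 (0.19), *Nr4a1* in PancVAX in regulatory T (-0.13), *Nr4a2* in PancVAX in regulatory T (-0.093), *Egr1* in PancVAX in regulatory T (-0.20), *Egr1* in PancVAX in myeloid (-0.068), *Crem* in both antibodies in CD8 (0.093), *Nr4a1* in both antibodies in CD4 (0.19), *Nr4a3* in both antibodies in CD4 (0.11), *Crem* in both antibodies in CD4 (-0.13), *Crem* in both antibodies in regulatory T (0.38), *Nr4a1* in both antibodies in myeloid (0.10), *Egr2* in both antibodies in myeloid (0.16), *Nr4a1* in anti–PD-1 (-0.11), *Nr4a2* in anti–CTLA-4 (-0.023), *Egr1* in anti–CTLA-4 (0.068), *Egr2* in anti–CTLA-4 (0.52), *Crem* in anti–CTLA-4 (-0.0066), *Nr4a3* in regulatory T against CD4 (-0.018), *Nr4a3* in CD8 against myeloid (0.059), *Egr1* in expanded against single clones (-0.13), *Nr4a1* in CD4 minus CD8 (0.21), and *Egr1* in regulatory T minus CD8 (-0.32). By DESeq2 the number of genes called was 357 for PancVAX in checkpoint-high, 0 for PancVAX in regulatory T, 46 for PancVAX in myeloid, 11 for both antibodies in CD8, 18 for both antibodies in CD4, 0 for both antibodies in regulatory T, 19 for anti–PD-1, 460 for expanded against single clones, 53 for CD4 minus CD8, 63 for regulatory T minus CD8, and 394 for myeloid minus CD8. The sign turned for *Nr4a3* in PancVAX in CD4 (-0.031) and *Egr1* in regulatory T minus CD8 (-0.036). With no filter on low counts the number of genes called was 212 for PancVAX in CD4, 30 for PancVAX in regulatory T, 18 for PancVAX in myeloid, 81 for both antibodies in CD8, 81 for both antibodies in checkpoint-high, 61 for both antibodies in CD4, 22 for both antibodies in regulatory T, 14 for both antibodies in myeloid, 105 for anti–PD-1, 75 for anti–CTLA-4, and 1124 for regulatory T against CD4. The sign turned for *Nr4a2* in both antibodies in regulatory T (0.068). With stricter gates the number of genes called was 18 for PancVAX in CD4, 3 for both antibodies in CD4, 0 for both antibodies in regulatory T, 0 for both antibodies in myeloid, and 13 for anti–PD-1. The sign turned for *Nr4a3* in PancVAX in CD4 (-0.12), *Nr4a1* in both antibodies in CD8 (0.051), *Crem* in both antibodies in CD8 (0.0073), *Egr2* in both antibodies in myeloid (0.025), *Nr4a3* in regulatory T against CD4 (-0.012), *Nr4a3* in CD8 against myeloid (0.21), and *Egr1* in expanded against single clones (-0.019). In Percoll libraries alone the number of genes called was 38 for PancVAX in CD4 and 0 for PancVAX in regulatory T. The sign turned for *Nr4a3* in PancVAX in CD4 (-0.36). In whole-tumor libraries alone the number of genes called was 47 for PancVAX in CD4 and 4 for PancVAX in regulatory T. The sign turned for *Nr4a3* in PancVAX in CD8 (0.069) and *Nr4a2* in PancVAX in CD4 (0.37). 

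The replicate block was tried where it was not in the reported fit, and it was left out where it was. With the 16 libraries as samples and the preparation as the block the number of genes called was 113 for PancVAX in CD4 and 43 for PancVAX in myeloid. Without the preparation as the block the number of genes called was 3 for both antibodies in checkpoint-high, 2 for both antibodies in CD4, 4 for anti–PD-1, and 8 for anti–CTLA-4. The sign turned for *Nr4a1* in both antibodies in CD8 (0.015). Without the library block the number of genes called was 372 for regulatory T against CD4 and 451 for expanded against single clones. 

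With each pool or library left out in turn, the number of genes called ranged from 338 to 722 for PancVAX in checkpoint-high, 28 to 48 for PancVAX in CD4, 0 to 14 for PancVAX in regulatory T, 0 to 4 for PancVAX in myeloid, 3 to 9 for both antibodies in checkpoint-high, 2 to 10 for both antibodies in CD4, 0 to 13 for both antibodies in regulatory T, 0 to 0 for both antibodies in myeloid, 2 to 5 for anti–PD-1, and 3 to 4 for anti–CTLA-4. The log2 fold changes whose sign turned ranged from -0.30 to 0.19 for *Nr4a3* in PancVAX in CD8, -0.098 to 0.40 for *Nr4a3* in PancVAX in checkpoint-high, -0.10 to 0.24 for *Crem* in PancVAX in checkpoint-high, -0.040 to 0.42 for *Egr1* in PancVAX in checkpoint-high, -0.61 to 0.21 for *Nr4a2* in PancVAX in CD4, -0.38 to 0.21 for *Nr4a3* in PancVAX in CD4, -0.10 to 0.30 for *Nr4a2* in PancVAX in regulatory T, -0.27 to 0.23 for *Nr4a1* in both antibodies in CD8, -0.28 to 0.20 for *Nr4a2* in both antibodies in CD8, -0.38 to 0.23 for *Nr4a2* in both antibodies in checkpoint-high, -0.55 to 0.080 for *Nr4a3* in both antibodies in checkpoint-high, -1.35 to 0.89 for *Nr4a3* in both antibodies in CD4, -0.022 to 0.33 for *Crem* in both antibodies in CD4, -0.29 to 0.30 for *Nr4a2* in both antibodies in regulatory T, -0.11 to 0.027 for *Nr4a1* in both antibodies in myeloid, -0.25 to 0.081 for *Egr2* in both antibodies in myeloid, -0.46 to 0.034 for *Nr4a3* in both antibodies in myeloid, -0.25 to 0.036 for *Crem* in both antibodies in myeloid, -0.17 to 0.31 for *Nr4a2* in anti–PD-1, -0.027 to 0.21 for *Crem* in anti–PD-1, -0.024 to 0.39 for *Nr4a3* in anti–PD-1, -5.50 to 1.14 for *Egr2* in anti–PD-1, -0.11 to 0.37 for *Nr4a2* in anti–CTLA-4, -0.017 to 0.40 for *Nr4a3* in anti–CTLA-4, -0.40 to 0.16 for *Egr1* in anti–CTLA-4, -1.80 to 0.69 for *Egr2* in anti–CTLA-4, -0.079 to 0.14 for *Crem* in anti–CTLA-4, -0.14 to 0.36 for *Nr4a1* in anti–CTLA-4, -0.0077 to 0.32 for *Nr4a1* in regulatory T against CD4, and -0.057 to 0.078 for *Egr1* in expanded against single clones.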

Other observations

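Checkpoint-low CD8 cells entered no vaccine test of their own. *Crem* in these cells had 56.7 to 115 CPM with PancVAX and 27.5 to 67.9 CPM without, with overlap. *Egr1* had 163 to 306 CPM with PancVAX and 96.8 to 136 CPM without, and these pools did not overlap. Neither difference was tested.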
